A study of Mus musculus with 7 samples.

Results

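The data described 101 genes for potassium channels and HCN channels in 7 single neurons of the mouse hippocampus. Members were the gene symbols made of Kcn, further letters and a number, together with the 4 Hcn genes. They comprised 97 protein-coding genes, of 20808 protein-coding genes that all 7 tables name, and 4 noncoding genes (Kcnq1ot1, Kcnd3os, Kcnmb4os1 and Kcnmb4os2) that the table of cell 7 does not list. Of the coding members, 81 encode subunits that line the pore and 16 encode auxiliary subunits (Kcnab, Kcne, Kcnip and Kcnmb). The rule used names alone, so the levels played no part in it.

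All 7 cells form 1 group of untreated cells from VIP-eGFP mice, a line in which a green fluorescent protein reports cells that express vasoactive intestinal polypeptide (VIP). The cells lay in stratum oriens/alveus of area CA1, were recorded by patch clamp and then aspirated with cytoplasm and nucleus, and were kept when the axon could be followed to the subiculum. The mice's age is not given in the labels, and no label ties a cell to an animal, so the 7 cells counted as 1 sample and no groups were compared by a test. Values are TPM, transcripts per 1000000 transcripts of a library, and a gene above 1 TPM is called detected. Each SD measures how far the 7 cells lie apart. With 1 library per cell, less RNA in a cell and less RNA drawn into the pipette cannot be told apart.

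Potassium channels are tetramers, or dimers in the case of the K2P family, that let potassium leave the cell and so set the resting potential, the width of the action potential and the rate of firing. Voltage-gated Kv subunits open on depolarisation, calcium- and sodium-activated subunits open with ion entry, and inward rectifiers and K2P leak channels act near rest. HCN channels belong to the same superfamily but open on hyperpolarisation and pass sodium as well as potassium. In hippocampal interneurons, Kv3 channels are known for fast repolarisation, Kv7 channels for the M-current that muscarinic receptors inhibit, and HCN channels for the current called Ih.

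What unites the pore-forming members is the selectivity filter, the loop whose carbonyl groups bind potassium. A search of translated coding sequences for threonine, serine or cysteine, then valine, isoleucine, threonine or leucine, then glycine, tyrosine or phenylalanine, and glycine found the pattern in 81 of 81 pore-forming members and in 0 of 16 auxiliary members. Of all 21504 genes with a complete coding sequence, 203 (0.944%) held it. Of those, 122 were not members, so the pattern by itself does not mark a member. The coding strand is shown here for some of the members that led their subfamily in at least 1 cell, as 45 bases 5′ to 3′ from the longest coding transcript of each gene in GENCODE M21 (mm10). Capitals mark the codons for glycine, tyrosine or phenylalanine, and glycine.
Kcna1: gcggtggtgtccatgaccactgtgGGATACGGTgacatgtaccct
Kcnc2: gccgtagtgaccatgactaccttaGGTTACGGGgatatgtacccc
Kcnh6: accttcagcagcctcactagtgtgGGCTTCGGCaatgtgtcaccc
Kcnj3: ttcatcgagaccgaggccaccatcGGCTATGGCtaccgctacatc
Kcnk1: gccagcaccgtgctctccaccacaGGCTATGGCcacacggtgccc
Hcn2: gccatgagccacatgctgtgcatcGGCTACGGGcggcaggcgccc
Hcn3: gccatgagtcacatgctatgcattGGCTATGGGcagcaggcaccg
Kcnh6 has phenylalanine in the middle of the triplet, and the other genes shown have tyrosine. Hcn2 and Hcn3 shared 38 of 45 bases, whereas Hcn2 and Kcnj3 shared 18 of 45. Over whole coding sequences, 14 pairs of members shared at least 1 word of 31 bases. Reads inside such words cannot be assigned to one gene of the pair. The highest share in any pair was 7.82% of a gene's words, between Kcna5 and Kcna6.

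Of the 97 coding members, 56 (57.7%) were detected in at least 1 cell, where 55.1% of all coding genes were, and 14 (14.4%) were detected in 4 or more cells. The 14 of 97 stand beside a background of 18.9% of all protein-coding genes. In 4 or more of cells 1 to 6, the shares were 14.4% and 16.7%. The members' share thus lay near the background, and no difference is read from it. None of the 97 was detected in 7 of 7 cells, against 2.94% of all coding genes. Another 41 members (42.3%) were detected in no cell, as were 44.9% of all coding genes. Of these, 27 were listed at 0 throughout, which is 27.8% of the members, against 36.2% of all coding genes. Without cell 2, the members detected in at least 4 cells numbered 7, and without cell 3, 4 or 5 they numbered 8.

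From cell 1 to cell 7, the number of coding members detected was 18, 34, 21, 16, 26, 14 and 7. As shares these were 18.6%, 35.1%, 21.6%, 16.5%, 26.8%, 14.4% and 7.22%, beside 14.8%, 38.7%, 24.8%, 21.3%, 32.7%, 17.3% and 14.6% of all coding genes in the same cells. Above 1 TPM the members' share was thus the higher one in cell 1 alone. The direction rested on that threshold, since above 0 TPM the members' shares were 30.9%, 49.5%, 43.3%, 29.9%, 42.3%, 30.9% and 20.6%, beside 22.5%, 46.5%, 34.9%, 27.9%, 41.7%, 26.8% and 26.9% of all coding genes, higher in cells 1 to 6 and lower in cell 7. Cells with more coding genes detected had more channel genes detected (Spearman rho 0.893 over 7 cells that share a protocol but differ in depth, a description only). Libraries held 1052327 to 3398521 estimated counts. Cell 7, with 3225330, was below cell 2 alone. The rho of channel genes detected with estimated counts was 0.429, again a description only.

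**Figure D1:**
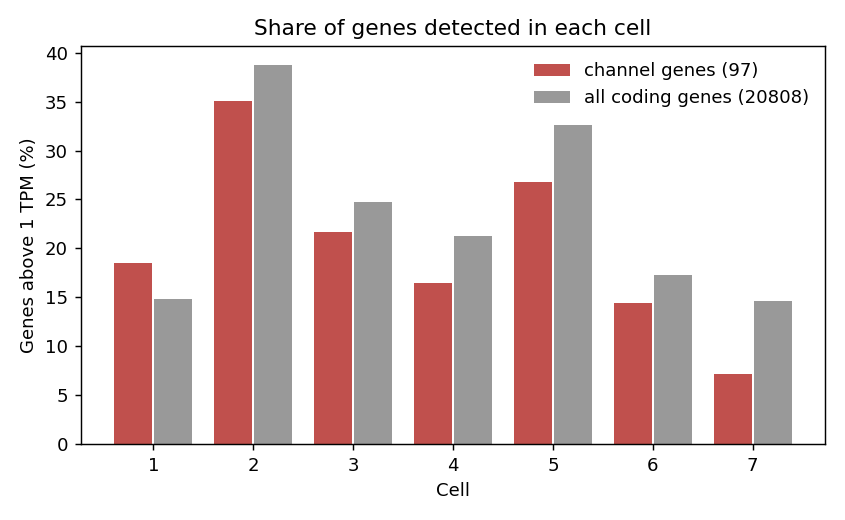
Percent of genes above 1 TPM in each of the 7 cells, for the 97 coding channel genes (red bars) and for all 20808 protein-coding genes named in every table (grey bars). Cell 2 had the highest share of channel genes (35.1%) and cell 7 the lowest (7.22%, against 14.6% of all coding genes).

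Cell 7 stood at the low end for the family, and its library differs from the others in ways that move with this. Channel genes took 0.0370% of the estimated counts on coding genes in cell 7, against 0.174% to 0.432% in cells 1 to 6. The table of cell 7 lists Ensembl transcripts and the other 6 list RefSeq transcripts, so the transcript set and the cell cannot be told apart. A list of 8 oligodendrocyte genes, among them Mbp, Mog, Mag, Mobp and Cnp, summed to 20793 TPM in cell 7, with 6 of 8 detected and Olig1 and Olig2 at 0, and to 113 to 1288 TPM in cells 1 to 6. The marker lists of astrocytes (2753 TPM) and pyramidal cells (470 TPM) also summed highest in cell 7. That of microglia did so as deposited (1702 TPM), but after rescaling over the shared coding genes it summed to 2345 TPM in cell 7, below cells 3 and 5 (5360 and 2783 TPM). The astrocyte markers in cell 7 included Gfap at 0 and Aqp4 at 0.0608 TPM. Of the pyramidal sum in cell 7, Nrgn alone made up 458 TPM. Slc17a7 was at 7.38 TPM there, against 52.2 TPM in cell 2, and Camk2a at 4.54 TPM, against 62.2 TPM in cell 1. The part of these cells' RNA in the low channel values was not tested. As a check of the VIP neuron label, Vip was at 5006 TPM in cell 7 and at 25.3 to 4299.6 TPM in the others, and Gad1, which encodes a GABA-synthesising enzyme, was at 9.59 to 490 TPM over the 7 cells. The other GABA markers were low in cell 7, with Slc32a1 at 0, as in cell 6. Gad2 was at 0.218 TPM in cell 7, against 21.3 to 162 TPM in cells 1 to 6. Of 10 VIP interneuron markers, Vip and Gad1 among them, 3 were detected in 7 of 7 cells and 8 in 4 or more. Others were uneven, with Prox1 detected in cell 2 alone, Htr3a in cells 2, 4 and 7, and Calb2 at 0 in cells 1 and 2. Sst (501 TPM) and Npy (609 TPM), markers of other interneurons, were also high in cell 7. This was not particular to it, since Npy was at 902 and 534 TPM in cells 1 and 4. Sst was at 269 TPM in cell 1, and Pvalb, another such marker, was at 0 in cell 7.

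The leading class of channel differed between cells. Auxiliary Kv subunits led in 4 of 7 cells, with 66.3% of the summed channel TPM of cell 6, 62.3% of cell 4, 35.6% of cell 3 and 33.7% of cell 2. In cell 7 the calcium- and sodium-activated group took 63.1%, nearly all of it Kcnn2. Cell 1 was spread more evenly, with 22.4% for Kcnh, 19.8% for auxiliary Kv subunits, 18.7% for K2P channels and 16.0% for HCN channels. In cell 5 the calcium- and sodium-activated group took 21.1%, auxiliary Kv subunits 18.2% and Kv7 genes 15.2%. Shares within a cell do not depend on the scale of its TPM. The highest single members were Kcnk1 in cell 1, Kcnip1 in cells 2 and 4, Kcnab3 in cell 3, Kcnmb4 in cell 5, Kcnip3 in cell 6 and Kcnn2 in cell 7.

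**Figure D2:**
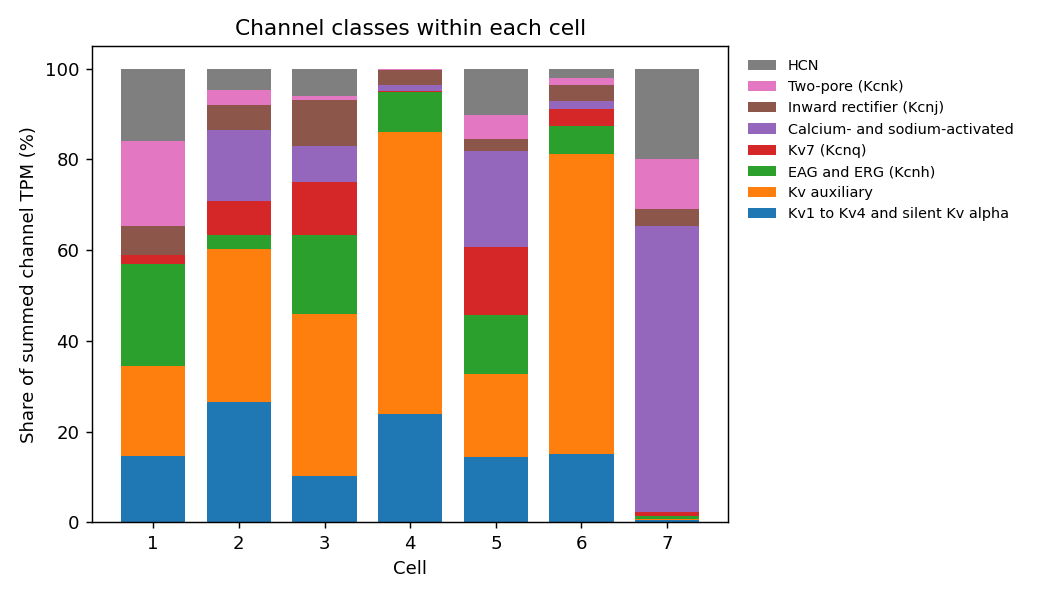
Share of the summed TPM of the coding channel genes (percent, vertical axis) that each channel class took in each cell (horizontal axis), stacked to the whole. Auxiliary Kv subunits took 66.3% in cell 6 and 62.3% in cell 4, while the calcium- and sodium-activated class took 63.1% in cell 7.

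**Figure D3:**
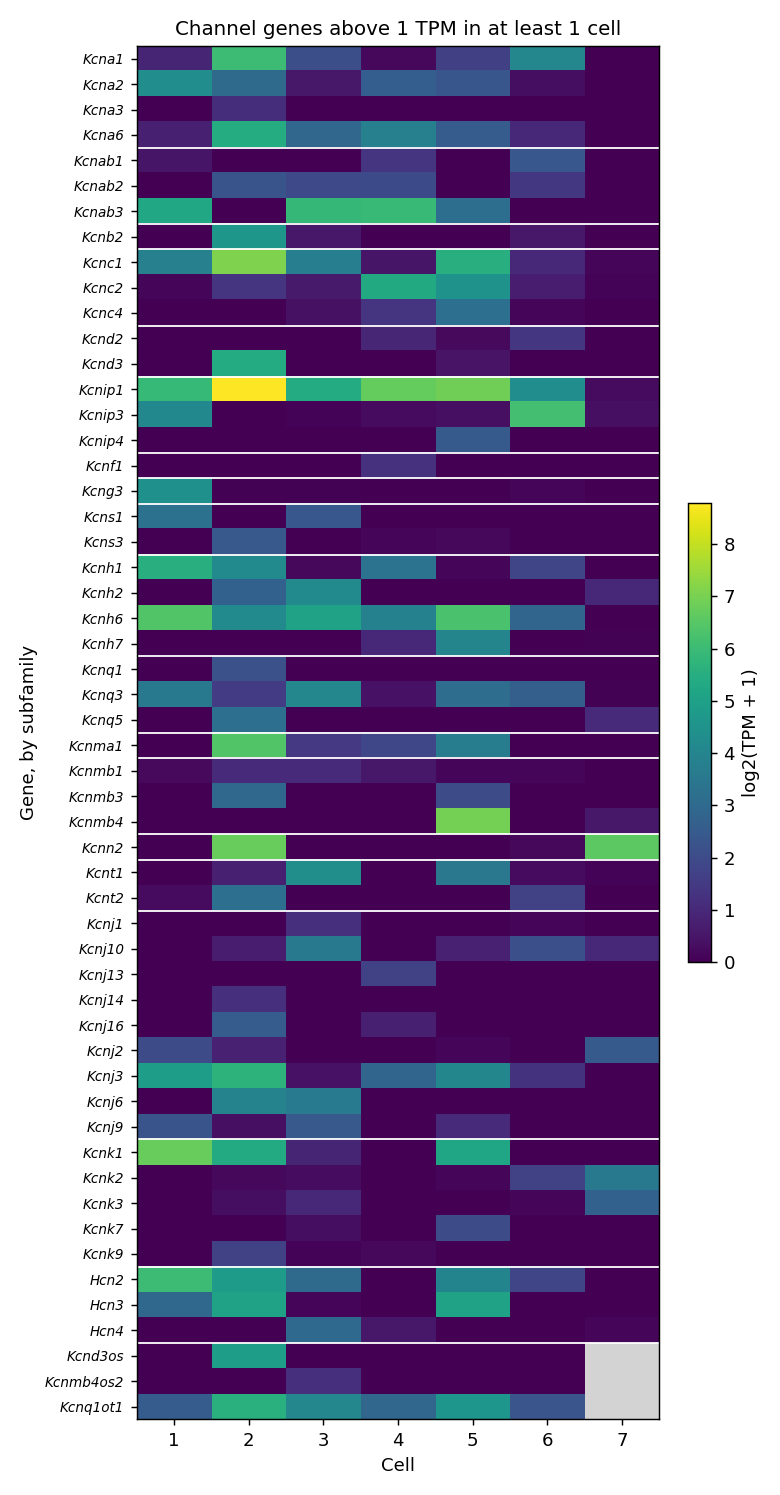
Level of 54 members above 1 TPM in at least 1 cell, as log2(TPM + 1), with genes in rows by subfamily (white lines part subfamilies) and the 7 cells in columns. Grey marks the noncoding genes that the table of cell 7 does not list. Kcnip1 is bright in cells 1 to 6, Kcnn2 in cells 2 and 7, and Kcnmb4 in cell 5.

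Of the Kv1 subunits, which open at low voltage and sit on axons, Kcna1, Kcna2 and Kcna6 were each detected in 4 of 7 cells. Kcna1 was at 0.866, 64.8, 3.31, 0.135, 2.14, 15.8 and 0 TPM in cells 1 to 7, highest in cells 2 and 6. Kcna2 was at 18.7, 7.14, 0.479, 5.23, 4.11, 0.249 and 0 TPM in the same order, and led the subfamily in cell 1. Kcna6, at 0.707, 42.5, 6.45, 13.3, 4.88, 0.956 and 0 TPM, led in cells 3, 4 and 5. The leading gene thus differed between cells, and Kcna1 and Kcna2 were both detected in cells 2 and 5. Kcna3 was above 1 TPM in cell 2 alone (1.22 TPM, from 5 counts), and Kcna4, Kcna5, Kcna7 and Kcna10 in no cell.

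The Kv3 subunits, whose fast closing lets neurons fire at high rates, were detected in cells 1 to 5. Kcnc1 was at 13.2, 136, 12.5, 0.427, 45.4, 0.951 and 0.0873 TPM in cells 1 to 7, and led in cells 1, 2, 3 and 5. In cell 4 Kcnc2 led instead, at 39.2 TPM, and it was also at 21.8 TPM in cell 5. Cell 5 had Kcnc1, Kcnc2 and Kcnc4 above 1 TPM together, with Kcnc4 at 8.33 TPM. Pvalb, a marker of the fast-spiking basket cells best known for Kv3, was at 64.8 TPM in cell 5 and at 0 in cell 2. It was at 264 TPM in cell 6, where no Kv3 gene passed 1 TPM as deposited. After rescaling over the shared coding genes, Kcnc1 and Kcnc2 were at 7.25 and 4.44 TPM in cell 6. The relation of Pvalb to the Kv3 values was not tested.

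The remaining alpha subunit groups were sparse. Kcnb2, a Kv2 subunit, reached 23.9 TPM in cell 2 and at most 0.479 TPM elsewhere. Of the Kv4 subunits, which carry the A-type current, Kcnd3 was at 41.3 TPM in cell 2 and Kcnd2 at 1.61 TPM in cell 6, and Kcnd1 was listed at 0 in 7 of 7 cells. Kcnd3os, antisense to Kcnd3, was at 29.3 TPM in cell 2 and at 0 in cells 1, 3, 4, 5 and 6, and without strand, reads inside the short overlap of this pair cannot be told apart. Among the silent subunits that modify Kv2 channels, Kcng3 was at 20.1 TPM in cell 1, Kcns1 at 8.70 and 4.21 TPM in cells 1 and 3, Kcns3 at 4.53 TPM in cell 2 and Kcnf1 at 1.40 TPM in cell 4. Kcnv1 and Kcnv2 stayed below 1 TPM.

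Kcnip1 was the most widely detected coding member, together with Kcnh6. It encodes a calcium-binding protein of the KChIP group, which attaches to Kv4 subunits and brings them to the membrane. It was at 58.7, 441, 41.0, 103, 116, 18.9 and 0.196 TPM in cells 1 to 7, which is 161, 1732, 192, 325, 483, 100 and 1 estimated counts. The mean log2(TPM + 1) was 5.46 ± 2.68 (SD, n = 7 cells), and cells 1 to 6 all lay above cell 7. Kcnip1 lies on chromosome 11 (33629339 to 33993152, minus strand, mm10), and its span holds Kcnmb1 on the other strand. Its presumed partners were rarer, since Kcnip1 was above 1 TPM together with Kcnd3 in cell 2 alone and with Kcnd2 in cell 6 alone. In cells 1, 3, 4 and 5, Kcnip1 stood at 41.0 to 116 TPM beside Kv4 genes that were all at or below 0.946 TPM.

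Other auxiliary subunits were restricted to some cells. Kcnip3, the KChIP also known as calsenilin or DREAM, had 70.6 TPM in cell 6, 16.1 in cell 1 and up to 0.293 elsewhere. Kcnip4 was detected in cell 5 alone (4.64 TPM), and Kcnip2 was listed at 0 throughout. Kcnab3, a beta subunit of Kv1 channels, was at 37.6, 0, 57.3, 59.8, 8.05, 0 and 0 TPM in cells 1 to 7. For the libraries listed at 0 (cells 2, 6 and 7), the TPM of 3 counts is 0.555, 0.357 and 0.393. Kcnab2 was lower, at 3.84, 2.80, 2.97 and 1.68 TPM in cells 2, 3, 4 and 6, and at 0 in cells 1, 5 and 7. All 5 Kcne genes were listed at 0 in every cell.

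**Figure D4:**
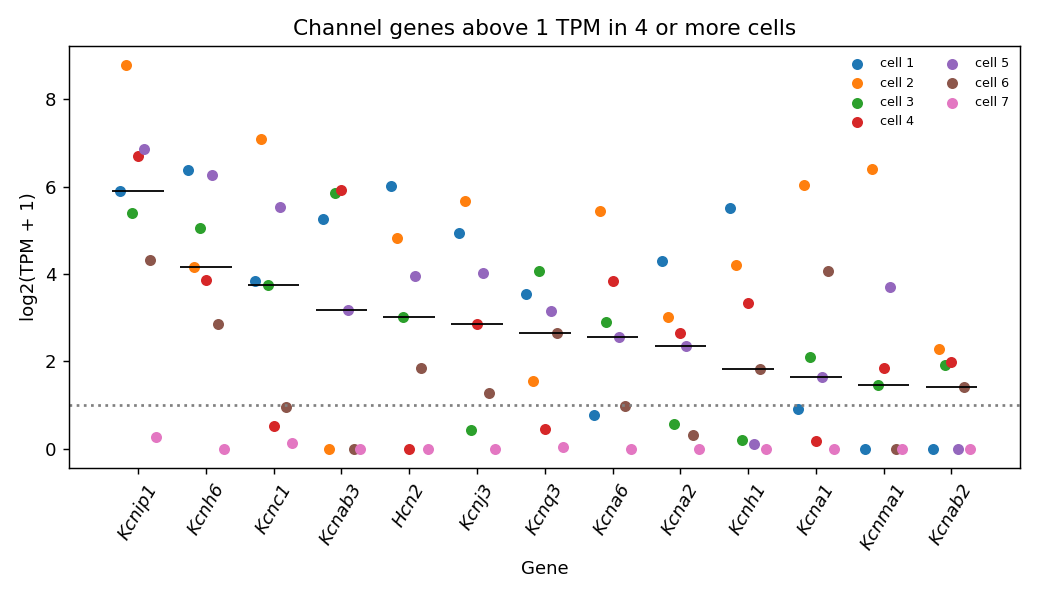
Level of 13 of the 14 coding members above 1 TPM in 4 or more cells, as log2(TPM + 1), with 1 point per cell, a black bar at the median and a dotted line at 1 TPM. Genes are ordered by median, from Kcnip1 (58.7 TPM) to Kcnab2 (1.68 TPM), and neighbouring genes overlap over most of their range.

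Kcnh6, an ERG-type subunit of the Kcnh family, was detected in 6 of 7 cells. It was at 82.8, 16.9, 32.4, 13.6, 76.4, 6.22 and 0 TPM in cells 1 to 7, and 3 counts would give 0.293 TPM in cell 7. These levels rested on 519, 153, 298, 78, 727 and 78 counts in cells 1 to 6. In 5 of those cells at least 85.3% of its TPM lay on a single predicted transcript of 3575 bases, while cell 2 had 54.2% on a predicted noncoding transcript of 5705 bases. Kcnh1, an EAG-type subunit, had 44.5, 17.4, 0.152, 9.07, 0.0797, 2.54 and 0 TPM in cells 1 to 7, so it was detected in 4 of them. In cells 4 and 6 the reads of Kcnh1 were all on a predicted noncoding transcript of 5077 bases. Kcnh2, the ERG gene best known from the heart, was detected in cells 2, 3 and 7 (5.65, 17.5 and 1.02 TPM), and Kcnh7 in cells 4 and 5 (1.02 and 15.1 TPM). Kcnh3, Kcnh4 and Kcnh5 were listed at 0 in all cells, and Kcnh8 reached 0.424 TPM. On mm10, Kcnh6 lies on chromosome 11 (106008124 to 106034549, plus strand).

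Kcnq3, a Kv7 subunit, was at 10.7, 1.94, 15.9, 0.358, 7.92, 5.26 and 0.0269 TPM in cells 1 to 7. It was above 1 TPM in 5 cells, and cells 4 and 7 lay below the others. Kcnq5, another Kv7 subunit of the brain, was detected in cells 2 and 7 (8.19 and 1.06 TPM). Kcnq1, a gene better known from the heart, was at 3.51 TPM in cell 2.

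The levels of calcium-activated channel genes differed widely between cells. Kcnn2, which encodes the small-conductance SK2 subunit behind the afterhyperpolarisation, reached 107 and 93.2 TPM in cells 2 and 7. Cell 6 had 0.150 TPM, and cells 1, 3, 4 and 5 were listed at 0, with 3 counts worth 0.315 to 0.503 TPM there. Cells 2 and 7 were also the cells with the highest Vip, Cck and Cnr1 (8825 and 6152 TPM for Cck). Kcnn1, Kcnn3 and Kcnn4 were detected in no cell. Kcnma1, the pore of the large-conductance BK channel, had 0, 83.8, 1.76, 2.63, 12.1, 0 and 0 TPM in cells 1 to 7. Kcnmb4, the neuronal BK beta subunit that slows activation, was at 123 TPM (273 counts) in cell 5 and at 0 or 0.486 TPM in the other cells. Cell 5 was the one cell in which Kcnma1 and Kcnmb4 were both above 1 TPM. Cell 2, with the highest Kcnma1, had Kcnmb3 at 6.67 TPM and Kcnmb4 at 0. Of the sodium-activated subunits, Kcnt1 was at 19.5 and 10.4 TPM in cells 3 and 5. Kcnt2 was at 8.34 and 2.34 TPM in cells 2 and 6, where Kcnt1 was at 0.694 and 0.187 TPM. After rescaling over the shared coding genes, cells 2 and 6 had both above 1 TPM, with Kcnt1 at 1.18 and 1.42 TPM. No exclusion is read from these values.

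Among the inward rectifiers, Kcnj3 was the most widely detected. It encodes GIRK1, a subunit opened by G proteins downstream of GABA-B, muscarinic and opioid receptors. Its level was 29.6, 50.2, 0.345, 6.25, 15.4, 1.44 and 0 TPM in cells 1 to 7. GIRK1 needs a partner subunit to reach the membrane, and those genes were detected less evenly. Kcnj6 (GIRK2) was at 14.1 and 11.4 TPM in cells 2 and 3 and at 0 in the other 5 cells. Kcnj9 (GIRK3) was at 3.85, 4.44 and 1.13 TPM in cells 1, 3 and 5. Cells 4 and 6 therefore had Kcnj3 above 1 TPM with Kcnj5, Kcnj6 and Kcnj9 all below it. Kcnj2, a classical strong rectifier, was detected in cells 1 and 7 (3.08 and 4.66 TPM). The ATP-sensitive subunit genes Kcnj8 and Kcnj11 were detected in no cell. Abcc8, which encodes a sulfonylurea receptor of such channels, was at 57.4 TPM in cell 6. Abcc9, of the same gene family, reached at most 0.119 TPM in any cell.

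Genes of the K2P subfamily (Kcnk), which carries background leak current, were detected in 5 of 7 cells. Kcnk1 was at 105, 40.6, 0.879, 0, 34.9, 0 and 0 TPM in cells 1 to 7, and was the highest channel gene of cell 1. At least 97.1% of its TPM in cells 1, 2 and 5 lay on 1 curated transcript of 2306 bases. Kcnk2 (TREK-1), a mechanically and lipid-gated channel, was detected in cells 6 and 7 (2.36 and 10.7 TPM), and Kcnk3 (TASK-1), an acid-sensitive one, at 5.64 TPM in cell 7. Kcnk1 was at 0 in cells 6 and 7. In cells 2, 3 and 5 Kcnk2 was at 0.135, 0.229 and 0.120 TPM beside Kcnk1 above 0, so no exclusion is read from this. Kcnk9 was at 2.33 TPM in cell 2 and Kcnk7 at 3.03 TPM in cell 5, and the other 9 members of the subfamily were detected in no cell.

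Among the HCN genes, Hcn2 was detected in 5 of 7 cells. Hcn2 channels open slowly and respond strongly to cyclic AMP. Hcn2 was at 64.3, 27.2, 7.12, 0, 14.6, 2.61 and 0 TPM in cells 1 to 7, and led in cells 1, 3 and 6. Hcn3 was at 6.84, 32.4, 0.0927, 0, 32.4, 0 and 0 TPM, and led in cells 2 and 5. Hcn2 and Hcn3 were detected together in cells 1, 2 and 5. Hcn4, the slowest subunit and the pacemaker form of the heart, was detected in cell 3 alone, at 7.07 TPM from 69 counts. Cell 4 had 3 counts of Hcn4 (0.490 TPM) and none of Hcn2 or Hcn3, for which 3 counts would give 0.588 and 0.443 TPM. Cell 7 likewise had Hcn2 and Hcn3 at 0, where 3 counts would give 0.309 and 0.245 TPM. On mm10, Hcn2 lies on chromosome 10 (79716634 to 79736108, plus strand).

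**Figure D5:**
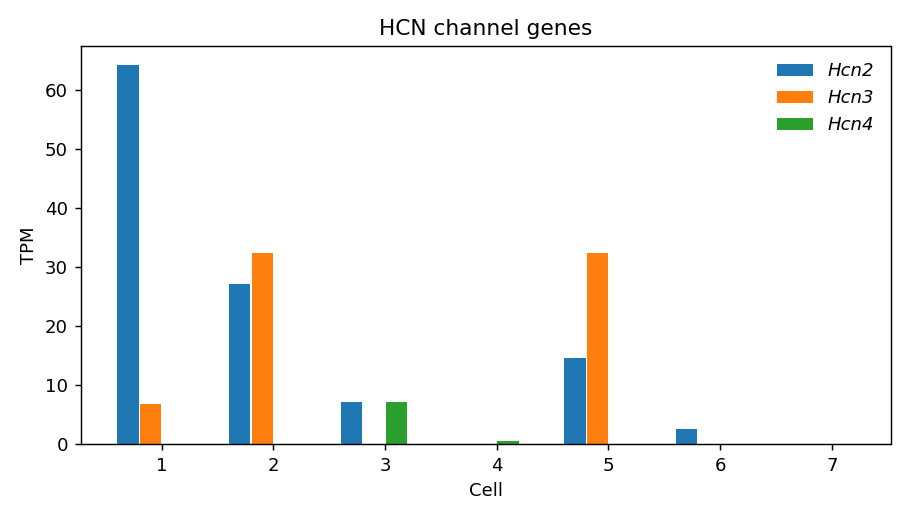
TPM of Hcn2, Hcn3 and Hcn4 in each of the 7 cells (1 bar per gene and cell, no error since each is 1 library). Hcn2 is the tallest bar in cells 1, 3 and 6, Hcn3 in cells 2 and 5 at 32.4 TPM each, and cell 4 has no bar above 0.490 TPM.

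Genes for partner proteins of these channels were detected more widely than the channel genes. Of 31 partners, 28 were detected in at least 1 cell and 16 (51.6%) in 4 or more, where 14.4% of the coding members and 18.9% of all coding genes were. Dpp10 and Dpp6 encode transmembrane subunits of Kv4 channels. Dpp10 was at 26.5, 12.2, 13.2, 5.56, 47.3, 1.26 and 221 TPM in cells 1 to 7 and Dpp6 was above 1 TPM in cells 2 to 7, up to 57.3 TPM in cell 5. Both thus reached more cells than any Kv4 gene. Pex5l, the HCN partner TRIP8b, was at 16.2, 27.6 and 5.58 TPM in cells 2, 3 and 5, and at 0 in cells 1, 4, 6 and 7, so it was missing from cell 1, the cell with the highest Hcn2. Cntnap2, which anchors Kv1 channels on axons, ranged over 8.70 to 71.4 TPM in cells 1 to 6, and was listed at 0 for cell 7, in which no Kv1 gene passed 1 TPM. The calmodulin genes Calm2 and Calm3, which serve SK and Kv7 channels, were above 35 TPM in all cells. Of the gamma subunits of BK channels, Lrrc26 and Lrrc52 were listed at 0 in 7 of 7 cells. Lrrc38 was at 3.43, 2.25, 3.65 and 1.10 TPM in cells 2 to 5, and Lrrc55 at 10.8 TPM in cell 4 alone.

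Of the noncoding genes, Kcnq1ot1, a long nuclear RNA that silences genes around Kcnq1 on one parental chromosome, was detected in all 6 cells whose tables list it. It was at 4.87, 46.4, 15.9, 6.38, 23.5 and 3.93 TPM in cells 1 to 6, on 1 transcript of 83437 bases. Because of that length it held 744 to 8803 estimated counts. It overlaps Kcnq1 on the other strand, so reads of the Kcnq1 exon inside it cannot be told apart from its own. Kcnmb4os2 was at 1.28 TPM in cell 3 (5 counts) and Kcnmb4os1 was listed at 0.

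The table of each of cells 1 to 6 spread the 97 coding members over RefSeq transcripts of which 35.7% were curated messenger RNAs. The curated ones took 38.8% of channel TPM in cell 3 and 69.9% in cell 2, with the other 4 cells between. Predicted messenger RNAs took 27.9% to 61.0%, and predicted noncoding transcripts 0.190% to 5.71%. Kcnc1 showed the choice between transcripts most plainly, as curated transcripts of 7788 and 4336 bases split its TPM. The longer one took 98.1% in cell 1 and 63.4% in cell 3, and the shorter one 68.1% in cell 2 and 94.4% in cell 5. How reads were divided between transcripts was estimated by the authors' software, so such shares carry an error that the tables do not give.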

How the data were processed

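Each of 7 libraries came from 1 aspirated cell and was made with a SMART-Seq v4 kit, which keeps no strand and has no molecular identifiers, with 17 cycles of PCR, per the labels' protocols. The deposited tables give estimated counts and TPM (transcripts per 1000000) per transcript, beside a length and an effective length, per the file headers. STAR 2.5.2a, kallisto and mm10 are named in the submitters' processing notes, with no role or setting stated for any of them. Deposited TPM values were normalised within each table, over RefSeq transcripts in cells 1 to 6 and Ensembl transcripts in cell 7, so levels set across cells carry that limit. TPM and estimated counts were summed per gene symbol with Python 3.11.15 and pandas 2.3.3. Rows with a blank or date-like symbol were looked up by accession, which named 122 of 157 in the RefSeq tables and 81 of 81 in the Ensembl table. Log values are log2(TPM + 1). The floor for a 0 is the TPM of 3 counts on the gene's longest transcript. Floors cover counting error only, since PCR copies are not independent molecules. Gene positions and coding sequences are from GENCODE M21. Per-cell values were named for members above 1 TPM in 4 or more cells or above 50 TPM in any, the highest member of each subfamily and the Hcn genes. Some genes that meet this rule are not reported here. Other members named were chosen after their values were seen. Members and lists were chosen with earlier results of these data known. The alternatives were other thresholds, pseudocounts and scales, the highest transcript, pore-forming members only and leaving out each cell. Detection counts and the search for single distant cells were tested on simulated data. For the distant cells these were normally distributed values, without the many zeros of the channel genes.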

Additional observations from a re-analysis of the deposited data

Results flagged for a closer look

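Among 31 values examined with each cell as 1 unit, levels as log2 values (the number of members detected, their summed TPM and 29 named members), 5 had 1 cell far from the other 6, by Dixon's criterion on the gap to the next cell over the whole range. A chance rate of about 1 in 20 holds for normally distributed values, not for genes at or near 0 in most cells. In each of the 5 genes the other 6 cells were at or below 1 TPM, so the criterion was met almost by construction. Kcnmb4 was also named because of its level in cell 5. Kcnmb4 was at 123.3 TPM in cell 5, with at most 0.486 TPM elsewhere. Kcnd3 was at 41.33 TPM in cell 2, with at most 0.391 TPM elsewhere. Kcng3 was at 20.11 TPM in cell 1, Hcn4 at 7.075 TPM in cell 3 and Kcnf1 at 1.404 TPM in cell 4. The same 5 were picked out after rescaling over the shared coding genes, which also set cell 7 apart as low for Kcnh6 (0 TPM, with 6.22 to 82.8 TPM elsewhere as deposited) and for Kcnip1 (0.196 TPM, with 18.9 to 441 TPM elsewhere).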

How the results depend on the processing

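No paired analysis was possible because the labels give a single group. Moving from 1 TPM to other thresholds changed the counts most. Above 0 TPM the median cell had 30 members, 31 (32.0%) were found in 4 or more cells and 15 subfamilies had such a member, against 18, 14 (14.4%) and 9 above 1 TPM. Above 5 TPM, 7 members (7.22%) were found in 4 or more cells. Above 10 TPM the median cell had 10 members, and 3 members (3.09%) from 3 subfamilies were found in 4 or more cells. Leaving out each cell in turn gave 7 to 14 members in 4 or more cells (7.22% to 14.4%). The median summed TPM was 284, and 1098 after rescaling over the shared coding genes, whose share of TPM was lowest in cell 6 (13.1%) and highest in cell 7 (72.6%). The median number of members and the counts over cells were kept within 1.5 times by rescaling and a minimum of 10 estimated counts. The highest transcript and pore-forming members only did so too. For the summed TPM, the median was 246 with the highest transcript and 182 with pore-forming members only. In single cells, rescaling gave 24 members detected in cell 6, against 14 as deposited, and 32 in cell 3, against 21. Of 77 leading members per subfamily and cell, 76 were the same with the highest transcript. Depth limits values near 1 TPM, and up to 3 detected members per cell had under 10 counts.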

Other observations

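Kcnj10, the main inward rectifier of astrocytes and oligodendrocytes, was detected in cells 3 and 6 (10.8 and 3.38 TPM). It had 0.947 TPM in cell 7, where Mbp was at 16129 TPM and Aldoc at 2150 TPM. Kcnj16, its usual partner, was at 4.93 TPM in cell 2. Kcnj8, a gene of pericytes, and Kcnk13, a microglial channel gene, were listed at 0 in 7 of 7 cells, while the microglial genes C1qa, C1qb, C1qc, Cx3cr1, Aif1, Tmem119, P2ry12 and Csf1r summed to between 1.55 TPM (cell 6) and 1702 TPM (cell 7). Of the astrocyte markers, Gfap was listed at 0 in 7 of 7 cells and Aqp4 reached 0.0608 TPM. Where the RNA of these channel genes came from was not tested.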
